A study of Mus musculus with 2 samples.

Results

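The genes described here are 38 mouse interferon response genes, taken from 36528 genes counted in 2 single-cell RNA libraries of cultured newborn epidermal cells. They were chosen as the rows whose NCBI gene identifiers belong to a list of well-known interferon-induced symbols. The rule uses no expression value, but the list was chosen with earlier results of these data known. Each library pooled C57BL/6 pups of 1 genotype at postnatal day 1: 11 Rosa26-CreERT2 neonates for the library labelled wild type and 9 Bap1 fl/fl Rosa26-CreERT2 neonates for the library labelled knockout. Bap1 encodes a nuclear deubiquitinase, and Rosa26 drives the tamoxifen-dependent Cre recombinase in all cell types, so that every cell of a Bap1 fl/fl culture could delete the gene. Both cultures carried the recombinase and both received the same drug: 4-hydroxytamoxifen at 100 nM for 4 days, then 3 days without it, which made 7 days in a melanocyte medium (M254 with human melanocyte growth supplement). About 6000 viable cells of each were loaded on a droplet device that tags the 3′ ends of transcripts with unique molecular identifiers (UMIs). With 1 library per genotype there is no replicate, so no difference between the libraries has a test, and all intervals below cover counting error only.

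Interferons are secreted proteins that warn cells of infection. They bind paired receptors, whose JAK kinases activate STAT proteins. These proteins then act at promoters through the interferon-stimulated response element (ISRE), together with IRF9, or through the gamma-activated site (GAS). The induced genes encode proteins that block virus entry and release, bind or degrade foreign RNA, modify proteins with ISG15 or ADP-ribose, and feed back on the pathway; keratinocytes, the main cells of the epidermis, express many of them at a low level without infection.

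The promoters of the members were searched for the letters of these elements, which some held and others did not. RefSeq windows of 300 bases (250 before the start site and 50 from it on, build GRCm38.p6) were at hand for 29 of the 38 members, all but Ifi27, Mx1, Mx2, Oas2, Usp18, Dhx58, Parp9, Parp14 and Rtp4. The ISRE core was searched as GAAANNGAAA on both strands, where it reads TTTCNNTTTC on the reverse strand, and GAS as the palindrome TTCNNNGAA. The 2 motifs may overlap. An ISRE core lay in the windows of 13 of the 29 members (44.8%), against 3.99% of all 27025 genes with a window, each gene counted once. The GAS letters lay in 8 of the 29 (27.6%), against 9.55% of those genes. Some genes have several windows; of all 32817 windows, 3.43% held an ISRE core and 8.29% the GAS letters. A match is a description of the letters and not a binding site.

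The stretches that follow carry ISRE core matches, with matched bases in capitals. Each is written 5′ to 3′ on the strand of its gene, and positions count from 0 at the start site. Isg15, Ifit1, Gbp2 and Bst2 are shown for matches before the start, Ifitm3 and Ifih1 for matches just after it in genes with large differences between the libraries, and Eif2ak2 for a match in a gene whose levels were close.
Isg15 (chr4:156200863-156200908, minus strand): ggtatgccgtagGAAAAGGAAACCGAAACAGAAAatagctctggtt
Ifit1 (chr19:34640773-34640825, plus strand): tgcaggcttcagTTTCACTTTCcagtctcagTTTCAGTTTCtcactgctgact
Gbp2 (chr3:142620592-142620625, plus strand): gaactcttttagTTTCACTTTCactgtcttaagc
Bst2 (chr8:71537575-71537614, minus strand): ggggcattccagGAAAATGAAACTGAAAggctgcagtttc
Ifitm3 (chr7:141010715-141010743, minus strand): gGAAAAGGAAActtctgaGAAACCGAAAc
Ifih1 (chr2:62646206-62646233, minus strand): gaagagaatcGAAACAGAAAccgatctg
Eif2ak2 (chr17:78882535-78882564, minus strand): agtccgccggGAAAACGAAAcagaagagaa

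Isg15 held 3 overlapping core matches, the first beginning at position -78, and Bst2 held 2 overlapping ones from -130. Ifit1 held a pair of separate matches on the reverse strand from -104, and Gbp2 a single one at -59. In Ifitm3 the matches began at positions 2 and 19, with the GAS letters from 13, overlapping the second match. Trim25, the member with the largest ratio between the libraries among those with at least 100 UMIs, is shown for contrast. Its 250 bases before the start held neither set of letters, which says only that these letters are not in this window.
Trim25 (chr11:88999153-88999402, plus strand): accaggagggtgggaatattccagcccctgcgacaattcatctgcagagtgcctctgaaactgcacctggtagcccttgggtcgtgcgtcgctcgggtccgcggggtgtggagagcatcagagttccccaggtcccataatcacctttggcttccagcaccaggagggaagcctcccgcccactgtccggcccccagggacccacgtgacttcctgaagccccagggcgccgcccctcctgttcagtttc

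After filters on genes and mitochondrial RNA per cell and the removal of cells marked as doublets, 1912 cells of the library labelled wild type and 1738 of the library labelled knockout were kept, with a median of 37223 and 33585 UMIs per deposited cell. The libraries shared 3 cell barcodes. Clustering gave 10 clusters. Clusters 0 to 5 are rich in keratin RNA, and basal keratinocyte markers summed to 7097 and 5421 CPM in them (CPM is a gene's UMIs per 1e6 UMIs of the same cells, and is the unit of every level below). The 9 suprabasal keratinocyte markers summed to 148 CPM and 181 CPM in them, led by Ivl (61.3 CPM and 85.4 CPM) and Sbsn (47.2 CPM and 50.2 CPM). Krt1 and Flg, also of this list, were near 0. Cluster 6 carried fibroblast and skeletal muscle markers and stays unnamed. The other 3 are called myeloid-like, Schwann-like and melanocyte-like from their markers, names that were rebuilt here. Clusters 0 to 5 held 1755 and 1597 cells. They did not divide alike: 45.3% of these cells in the library labelled wild type lay in cluster 0, whereas cluster 5 held 45.8% of those in the library labelled knockout. The summed level of 6 cycling markers in clusters 0 to 5 was 331 CPM and 83.4 CPM, and its part in the differences below was not tested. Bap1 itself read 14.0 CPM in clusters 0 to 5 of the library labelled wild type and 19.6 CPM in the library labelled knockout. At a log2 ratio of 0.48 its RNA was not lower there, and the label could not be checked from it. Which exons were deleted is not given in the sources used here, and 3′ tags outside a deleted part check nothing.

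In clusters 0 to 5 the interferon response genes were mostly lower in the library labelled knockout. Of the 38, 34 had at least 20 UMIs over both libraries, and the library labelled knockout had a level at least 1.5-fold lower for 21 of these, against 17.4% of all 16754 genes with as many UMIs. None was 1.5-fold higher, against 7.74% of all genes. A level at least 2-fold lower was found for 11 members, against 9.12% of all genes. The median log2 ratio (library labelled knockout over library labelled wild type, the sense of every ratio below) was -0.69 over the 34 members and -0.02 over all genes. The 95% counting interval lay below 0 for 26 members (32.2% of all genes), above 0 for Isg20 alone (30.1% of all genes), and held 0 for 7.

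All 38 members together read 1621 CPM in the library labelled wild type and 912 CPM in the library labelled knockout, a log2 ratio of -0.83 (-0.84 to -0.82). Ifitm3, Ifitm2 and Bst2 held 82.1% and 77.5% of these UMIs. Without Ifitm3 the log2 ratio of the sum was -0.47, and without all 3 it was -0.50. The sum therefore mostly describes those 3 genes, and the counts of members describe the rest.

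**Figure D1:**
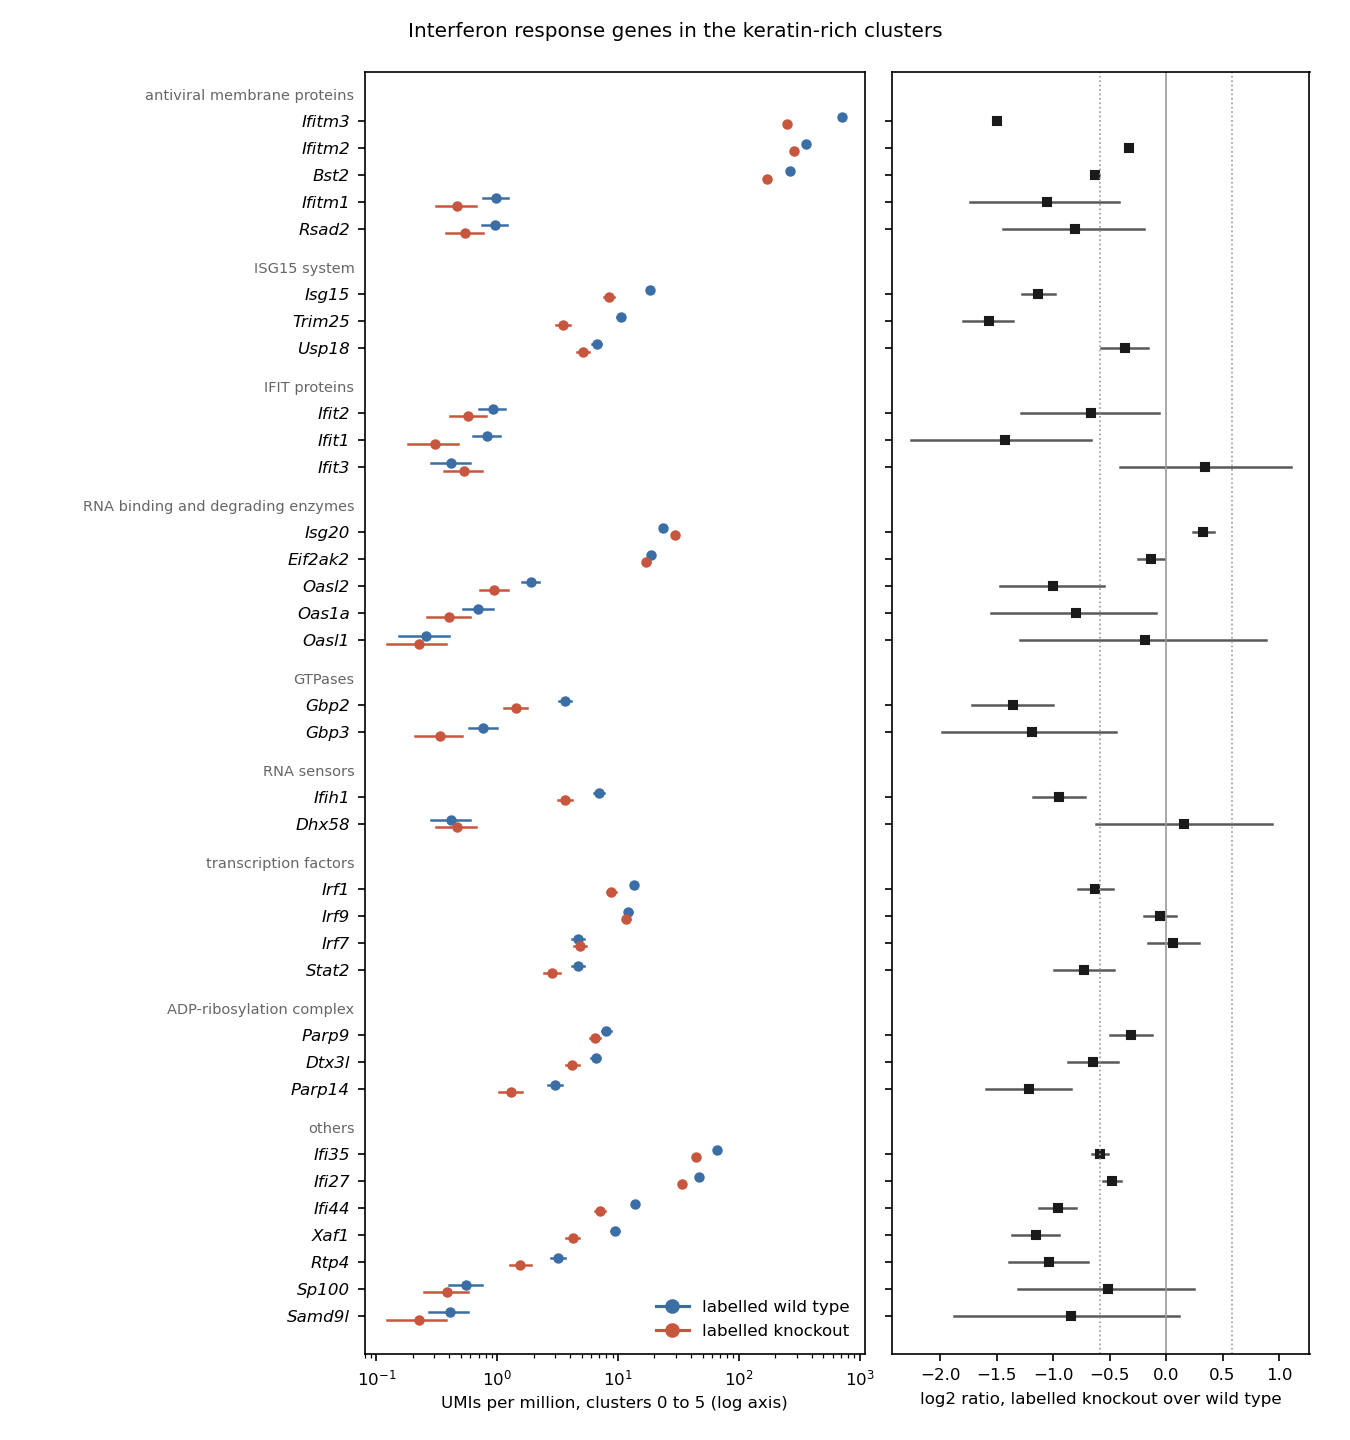
Levels of the 34 members with at least 20 UMIs in clusters 0 to 5, by role: CPM on a log axis for each library (left) and the log2 ratio, library labelled knockout over wild type, with its 95% counting interval and dotted lines at a 1.5-fold difference (right). Most ratios lie left of 0, from -1.57 for Trim25 to 0.35 for Ifit3.

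The antiviral membrane proteins were at least 1.5-fold lower in 4 of 5 cases. Ifitm3 (chr7:141009590-141010744), which traps entering viruses at endosomal membranes, read 710 CPM in the library labelled wild type and 252 CPM in the library labelled knockout, a log2 ratio of -1.50 (-1.52 to -1.47). Its median level over single cells was 424 CPM and 115 CPM. Bst2 (chr8:71534255-71537472), or tetherin, which holds budding virions at the cell surface, read 265 CPM and 171 CPM, a log2 ratio of -0.63 (-0.67 to -0.60). Both were lower beyond counting error, but the Bst2 ratio was -0.22 without cluster 0. Ifitm2, a close relative of Ifitm3 in the same gene cluster on chromosome 7, read 356 CPM and 284 CPM, a log2 ratio of -0.33, short of 1.5-fold. The third family member, Ifitm1, read 0.968 CPM and 0.466 CPM, and Rsad2, or viperin, which makes an antiviral nucleotide, read 0.955 CPM and 0.546 CPM. Within clusters, Rsad2 was lower in 1 of the 3 keratin-rich clusters with 20 UMIs and higher in 2. The Rsad2 log2 ratio ran from -2.77 to -0.04 over the processing alternatives. In cluster 1 of the library labelled wild type, 1 cell held 73.3% of the Rsad2 UMIs. Of the 60-base words in the last 400 bases of its transcripts, Ifitm2 shared 20.2% with other gene models and Ifitm3 shared 7.04%, so that their reads may be split among copies.

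The share of cells with an Ifitm3 UMI gave the same order. After each cell was thinned to 8000 UMIs, 83.5% of the cells of clusters 0 to 5 in the library labelled wild type had one, against 59.0% in the library labelled knockout. Unthinned, at a median of 39640 and 35703 UMIs per cell, the shares were 96.0% and 84.9%. No class here was known to lack Ifitm3, so no background share could be set. The lowest thinned shares were 75% in myeloid-like cells for the library labelled wild type and 37.9% in cluster 6 for the library labelled knockout. Over single cells the Pearson correlation of Ifitm2 and Ifitm3 (thinned counts, log scale) was 0.37 over 1755 cells and 0.36 over 1597 cells. These cells share library and depth, and the value is a description.

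In the ISG15 system, Isg15 and Trim25 were at least 2-fold lower and Usp18 was not 1.5-fold lower. Trim25 (chr11:88999403-89020294), a ubiquitin ligase that also acts in RNA sensing, read 10.5 CPM and 3.53 CPM, a log2 ratio of -1.57 (-1.79 to -1.35). Isg15 (chr4:156199424-156200818), the ubiquitin-like protein that is attached to other proteins, read 18.4 CPM and 8.41 CPM, a log2 ratio of -1.13 (-1.28 to -0.98). Usp18, which removes ISG15 and damps the receptor, read 6.64 CPM and 5.15 CPM, a log2 ratio of -0.37. The transcript ends of Trim25 and Isg15 shared no 60-base word with another gene.

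The IFIT proteins, which bind foreign RNA, were rare. Ifit1 read 0.820 CPM and 0.305 CPM, a log2 ratio of -1.43, but 37.7% of its UMIs in the library labelled wild type came from 1 cell. Ifit2 read 0.915 CPM and 0.578 CPM. For Ifit3 the levels were 0.417 CPM and 0.530 CPM, and 1 cell held 36.4% of the UMIs in the library labelled knockout; its ends share 16.7% of their words with Ifit3b. Ifit1 and Ifit3 thus rest in part on single cells, whereas no cell held over 5.56% of the Ifit2 UMIs.

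The enzymes that bind or degrade RNA divided. The oligoadenylate synthetase Oas1a read 0.699 CPM and 0.401 CPM, and 37.0% of the words at its ends are shared with Oas1g. Its relative Oasl2 read 1.90 CPM and 0.947 CPM, a log2 ratio of -1.0. In contrast, Eif2ak2, the kinase PKR that halts translation when it meets double-stranded RNA, read 18.8 CPM and 17.2 CPM, a log2 ratio of -0.13 (-0.25 to -0.02). Isg20, an exonuclease, read 23.6 CPM and 29.6 CPM, and its log2 ratio of 0.33 (0.23 to 0.42) was the only one with an interval above 0. Oasl1 stood at -0.18 with an interval that held 0.

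Both measured guanylate-binding GTPases, which act on the vacuoles of intracellular pathogens, were at least 2-fold lower. Gbp2 (chr3:142620663-142638008) read 3.65 CPM and 1.43 CPM, a log2 ratio of -1.35 (-1.71 to -1.0). Its neighbour Gbp3 read 0.767 CPM and 0.337 CPM. The Mx GTPases fell under 20 UMIs: Mx1, which is non-functional in this mouse strain, had 0 and 3 UMIs, and Mx2 had 6 and 3. Oas2 (2 and 0 UMIs) and the nucleotide kinase Cmpk2 (9 and 3) were also too rare to compare.

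Of the RNA sensors, Ifih1 (chr2:62595618-62646255), which detects long double-stranded RNA, read 6.95 CPM and 3.61 CPM, a log2 ratio of -0.94 (-1.18 to -0.72). Dhx58, a regulator of such sensors, read 0.417 CPM and 0.466 CPM, and its interval held 0.

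The transcription factors also divided. Stat2 read 4.67 CPM and 2.83 CPM, a log2 ratio of -0.72 (-0.99 to -0.46). Irf1, a factor strongly induced by interferon gamma, read 13.6 CPM and 8.80 CPM, a log2 ratio of -0.62. Irf7, the factor that amplifies interferon genes, read 4.67 CPM and 4.88 CPM, and Irf9, a DNA-binding partner of STAT proteins, read 12.2 CPM and 11.7 CPM, so that neither differed beyond counting error. Irf7 overlaps Phrf1 on the other strand and Irf9 overlaps Rnf31 on the same strand, and whether strand was used in counting is not given in the sources used here.

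In the ADP-ribosylation complex, Parp14 read 3.01 CPM and 1.30 CPM, a log2 ratio of -1.21. Dtx3l, a ubiquitin ligase, read 6.52 CPM and 4.18 CPM, and its partner Parp9 read 8.0 CPM and 6.46 CPM, with log2 ratios of -0.64 and -0.31. Dtx3l and Parp9 overlap on opposite strands of chromosome 16.

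Of the 7 other measured members, 4 were at least 1.5-fold lower. Xaf1, which promotes cell death by binding an apoptosis inhibitor, read 9.40 CPM and 4.22 CPM, a log2 ratio of -1.15. Ifi44 (chr3:151730922-151749910) read 13.8 CPM and 7.08 CPM, a log2 ratio of -0.96, which was -1.51 without cluster 4 and -0.44 without cluster 5. Rtp4, a receptor chaperone, read 3.19 CPM and 1.56 CPM, a log2 ratio of -1.03. That value was -0.51 without cluster 0 and -1.56 without cluster 5. Samd9l had 30 and 14 UMIs and a log2 ratio of -0.84 whose interval held 0. Ifi35 fell just outside the size limit, at 66.2 CPM and 44.2 CPM (log2 ratio -0.58), and Irf1 just inside it (-0.62). Ifi27 read 47.1 CPM and 33.9 CPM, a log2 ratio of -0.48, and the nuclear body protein Sp100 stood at -0.52 with an interval that held 0.

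The other genes of the pathway did not all show this difference. The counts below stand beside 17.4% of all genes at least 1.5-fold lower and 7.74% higher. None of the 11 interferon ligand genes reached 20 UMIs, and 8 were at 0 UMIs. Of 9 receptor and kinase genes, only Ifnlr1, the interferon lambda receptor, was 1.5-fold lower (8.19 CPM and 5.09 CPM), and none was higher. None of the 7 inhibitors differed by 1.5-fold. Of 13 measured sensors and adaptors, 2 (Sting1 and Zbp1) were lower and 1 higher, shares near those of all genes. Sting1, the adaptor of cytosolic DNA sensing, read 7.25 CPM and 1.81 CPM, a log2 ratio of -2.00 (-2.30 to -1.70), and the nuclease Trex1 read 5.03 CPM and 7.97 CPM.

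A list of 60 other interferon-induced genes had 25 of 51 measured genes at least 1.5-fold lower and 3 higher, against the same 17.4% and 7.74% of all genes, and a median log2 ratio of -0.56. Psmb8, an immunoproteasome subunit, read 22.6 CPM and 2.91 CPM, a log2 ratio of -2.96 (-3.19 to -2.73). The GTPase Igtp read 7.81 CPM and 1.70 CPM (log2 ratio -2.20), and its relative Irgm1 stood at -1.48. The chemokine Cxcl10 read 12.3 CPM and 4.13 CPM, a log2 ratio of -1.58. Mlkl, the effector of necroptosis, read 4.92 CPM and 1.03 CPM (log2 ratio -2.26). In the other direction, Ifi27l2b read 7.01 CPM and 15 CPM, a log2 ratio of 1.10.

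Within single clusters many members were again at least 1.5-fold lower. The counts were 15 of 30 measured members in cluster 0 (18.5% of all genes), 15 of 25 in cluster 1 (15.8%), 13 of 20 in cluster 2 (22.3%), 16 of 21 in cluster 3 (21% of all genes), 9 of 22 in cluster 4 (13.2%) and 10 of 24 in cluster 5 (17% of all genes). Clusters 0, 1 and 4 held at least 100 cells of both libraries. Of 19 members with 20 UMIs in every cluster, 11 were lower in all 6, against 17.8% of the 10737 genes so measured, and none was higher in all 6 (11% of those genes). The 11 were Ifitm3, Ifitm2, Bst2, Isg15, Trim25, Ifih1, Parp9, Xaf1, Ifi35, Ifi44 and Ifi27. Trim25 and Ifih1 were at least 1.5-fold lower in all 6 (2.58% of those genes). In cluster 3, with 19 cells of the library labelled knockout, Ifih1 had 40 and 0 UMIs, at least 1.88-fold lower against a floor of 3 UMIs, and the interval of Trim25 held 0. Irf7 and Isg20 were higher in 5 of 6.

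**Figure D2:**
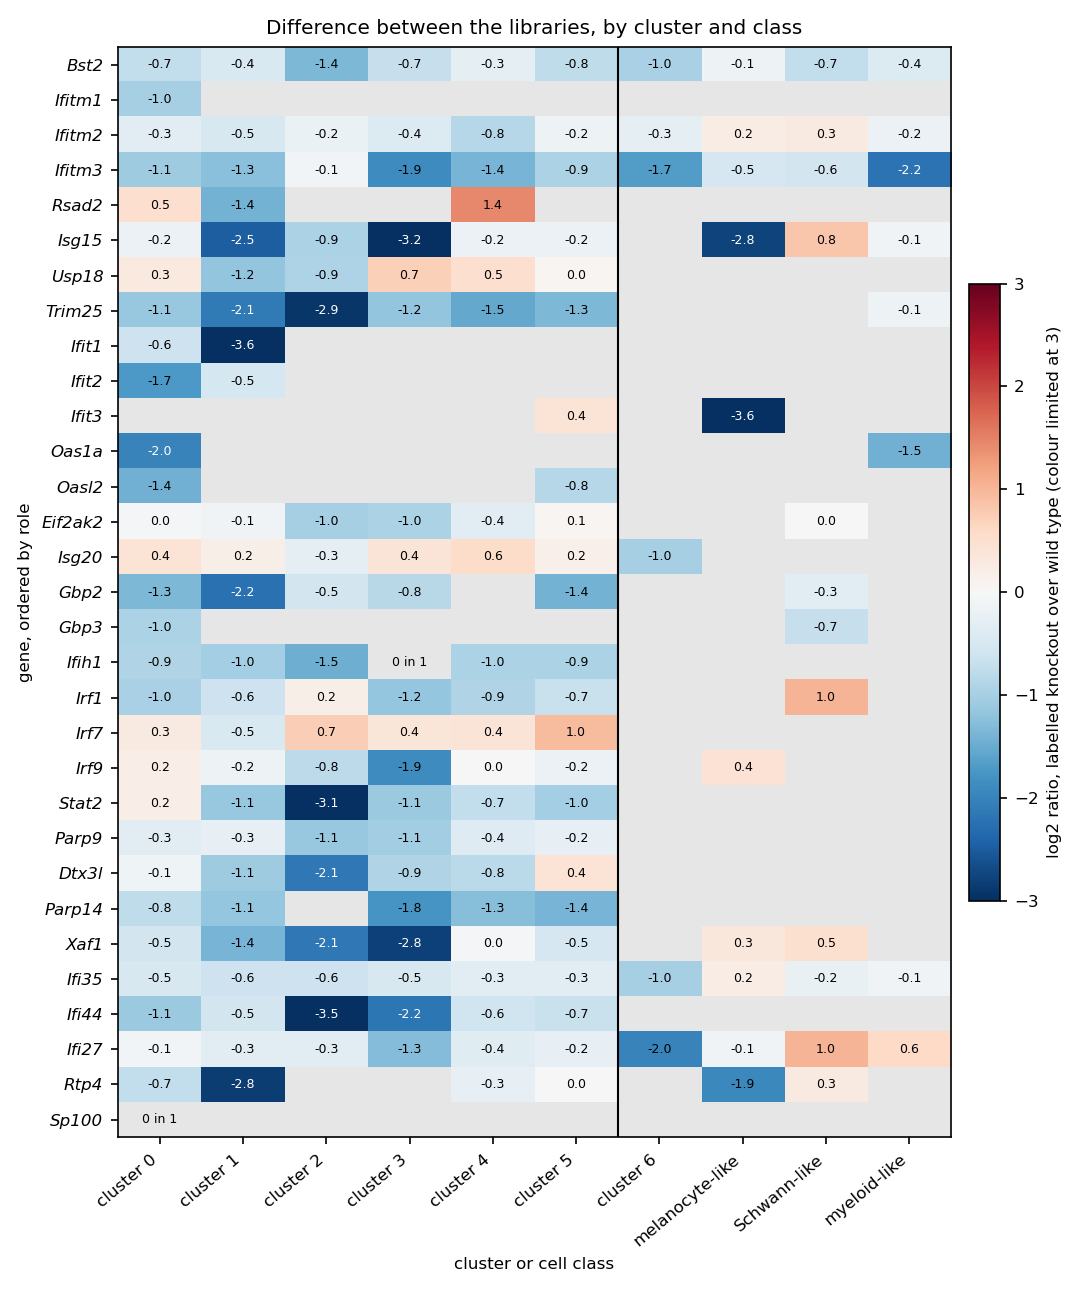
Log2 ratio (library labelled knockout over wild type) of each member in each keratin-rich cluster and each other class, where it had at least 20 UMIs; grey marks fewer UMIs, "0 in 1" marks 0 UMIs in 1 library, and the colour is limited at 3. Trim25 is in the lower colour in all 6 keratin-rich clusters. Ifih1 is so in each but cluster 3, where it is marked "0 in 1", and Ifitm3 is near 0 in cluster 2.

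How far a within-cluster direction holds depended on how cells were clustered, and it was read over 7 clusterings. These regroup largely the same cells, so the counts below overlap and are not independent. No share of all genes stands beside them, and some clusters came almost wholly from a single library, such as 2 and 108 cells. Trim25 was lower in 44 of 45 measured clusters, at least 1.5-fold in each of those 44. Ifitm3 was lower in 47 of 48 and Ifih1 in 44 of 46. Bst2 was lower in 42 of 48, Isg15 in 38 of 47 and Ifi27 in 35 of 48. Isg20 was lower in 10 of 48 and Irf7 in 17 of 43. Among the members just named, the within-cluster direction of Trim25, Ifitm3 and Ifih1 was thus the steadier. Other members were about as steady in fewer measured clusters, such as Gbp2 (lower in 33 of 34), Parp14 (34 of 36) and Oasl2 (16 of 16).

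Levels also differed among the keratin-rich clusters within each library. Cluster 4 was led by Spink12, Scgb1a1 and Sprr1a, and the suprabasal markers Krtdap, Sbsn and Ivl stood above the other cells in it. Its 8 basal markers also summed to 16347 CPM and 14667 CPM, the most of any keratin-rich cluster. Krt14 (14552 CPM and 13193 CPM) and Krt5 (1708 CPM and 1379 CPM) made most of that sum. In contrast, Trp63 (5.64 CPM and 2.55 CPM) and Dst (14.1 CPM and 8.92 CPM) were lowest of the keratin-rich clusters in both libraries. So was Itgb4 (41.9 CPM and 59.8 CPM). Krt10 read 34.5 CPM and 26.9 CPM. The markers thus went different ways, and the cluster is named neither basal nor suprabasal. Cluster 4 had the lowest Ifitm3 level in both libraries (117 CPM and 44.6 CPM) and the highest Ifi44 level (47.0 CPM and 31.0 CPM). Ifitm3 was highest in the cycling cluster 3 (1253 CPM) of the library labelled wild type, and in cluster 2 (522 CPM) of the library labelled knockout. In cluster 2 it read 550 CPM and 522 CPM, the one cluster where the libraries did not differ beyond counting error. Trim25 in cluster 4 read 19.3 CPM and 6.69 CPM. Since 10 members were among the genes used for clustering, the clusters were also built without them. The cluster then led by Spink12 read 178 CPM and 80.6 CPM for Ifitm3, 40.7 CPM and 38.5 CPM for Ifi44 and 18.0 CPM and 7.64 CPM for Trim25. The low Ifitm3 and high Ifi44 levels thus also appeared there, while Ifi44 was close between the libraries.

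Isg15 was uneven. It read 12 CPM and 2.16 CPM in cluster 1 and 23.7 CPM and 2.55 CPM in cluster 3, and its log2 ratio was -0.17 in clusters 0, 4 and 5. A few cells with many members carried much of it. Cells with UMIs of at least 8 of the 35 less abundant members after thinning numbered 8 of 1755 (0.456%) and 5 of 1597 (0.313%) in clusters 0 to 5, where the median cell had UMIs of 2 and 1 of the 35. The 8 cells held 12.1% of the Isg15 UMIs of their library, and the 5 cells held 37.4%. Without these cells Isg15 read 16.3 CPM and 5.28 CPM, a log2 ratio of -1.62 (-1.80 to -1.44), and was close between the libraries only in cluster 0 (0.04). The cells were defined by the members' own counts and are not a group of the study.

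The cell with the most members lay in cluster 5 of the library labelled knockout. It had 23472 UMIs in all and UMIs of 27 of the 38 members, among them 66 of Isg15, 13 of Gbp2, 12 of Ifit3 and 12 of Usp18. The corresponding cell of the library labelled wild type, in cluster 0, had 53133 UMIs and 22 members. Leaving the many-member cells out moved Rtp4 to a log2 ratio of -1.54 and Ifit1 to -1.0. The count of lower members was 21 with and without them.

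Markers of other cell types were also read in clusters 0 to 5. The 11 myeloid markers summed to 33.5 CPM and 23.5 CPM in clusters 0 to 5, where Lyz2 stood at 0.105% and 0.0493% of its level in myeloid-like cells and Tyrobp at 0.0722% and 0.0374%. All 11 were detected. The 7 melanocyte markers, all detected, summed to 306 CPM and 290 CPM, but to 1998 CPM and 367 CPM in cluster 5, where the library labelled wild type had 51 cells. The 7 Schwann markers summed to 47.4 CPM and 28.5 CPM. Higher in the library labelled knockout were the 5 smooth muscle or pericyte markers, at 2238 CPM and 3852 CPM, and the Merkel list, at 4848 CPM and 7719 CPM. The Langerhans or dendritic list summed to 2169 CPM and 2098 CPM, with Cd207 at 0. A sum does not show that cells of that type were present. The smooth muscle sum was highest in cluster 1 (7471 CPM and 8356 CPM). Of the Merkel list, only Krt8 and Krt18 were detected in the melanocyte-like, Schwann-like and myeloid-like cells. The part of this RNA in the members' levels was not tested.

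The 4 classes outside clusters 0 to 5 were small, and their values rest on few cells. In the 36 and 20 myeloid-like cells, the macrophage-related class, 2 of 8 measured members were 1.5-fold lower (14.9% of all genes) and 1 was higher (14.4%). Ifitm3 read 428 CPM and 92.6 CPM, a log2 ratio of -2.21 (-2.77 to -1.69). Ifi27 was higher in the library labelled knockout, at 167 CPM and 255 CPM, a log2 ratio of 0.61 (0.21 to 1.0). Ifitm2 and Bst2 stood at -0.19 and -0.41. The sum of all members read 2037 CPM and 1576 CPM (log2 ratio -0.37, -0.51 to -0.23); without Ifitm3 the ratio was -0.12 (-0.27 to 0.03), and after thinning it was -0.16. Without Ifitm3, Ifitm2 and Bst2 the direction turned, at 0.20 (-0.06 to 0.46). The other lower member was Oas1a. Parp9 had 12 and 0 UMIs, at least 1.82-fold lower against the floor, but fell under 20 UMIs. Basal keratinocyte markers summed to 611 CPM and 463 CPM in these cells and melanocyte markers to 256 CPM and 1402 CPM, and their part was not tested.

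In the 59 and 36 Schwann-like cells, a glial class, 2 of 12 measured members were lower (11.7% of all genes) and 3 higher (11.1%). Ifi27 read 82.0 CPM and 167 CPM, a log2 ratio of 1.03. Isg15 read 46.5 CPM and 82.4 CPM, a log2 ratio of 0.83 (0.13 to 1.52), but 1 cell of the library labelled knockout held 44.4% of it there and without many-member cells the interval held 0. Irf1 was the other higher member (13.5 CPM and 27.5 CPM), and Bst2 and Gbp3 were the lower ones. Gbp2 read 99.1 CPM and 77.8 CPM, far above its level in clusters 0 to 5. The sum of all members had a log2 ratio of 0.02, and without Ifitm3, Ifitm2 and Bst2 it was 0.34 (0.12 to 0.56).

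In the 22 and 56 melanocyte-like cells, 3 of 10 measured members were lower (13.2% of all genes) and 0 higher (13.6%). Isg15 read 126 CPM and 18.5 CPM, a log2 ratio of -2.77, and 3 of the 22 cells held 60.6% of it in the library labelled wild type. The others were Ifit3 and Rtp4. Without many-member cells Isg15 read 57.6 CPM and 17.2 CPM. For Ifit3, at 72.6 CPM and 6.16 CPM, 73.7% of the UMIs in the library labelled wild type came from 1 cell. In cluster 6, of 40 and 29 cells, 5 of 6 measured members were lower (19.4% of all genes), namely Ifitm3 at 348 CPM and 109 CPM, Bst2, Ifi35, Ifi27 and Isg20. The markers of this cluster differed between the libraries too: the skeletal muscle list summed to 333 CPM and 1.24 CPM, the cycling list to 153 CPM and 8.70 CPM and the Merkel list to 1273 CPM and 4933 CPM. Fibroblast markers summed to 7270 CPM and 7705 CPM. Their part in the members' differences was not tested.

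Across classes the members had their highest level in different cells. In the library labelled wild type, 15 of the 34 measured members were highest in melanocyte-like cells, 9 in myeloid-like, 5 in Schwann-like, 4 in clusters 0 to 5 and 1 in cluster 6. In the library labelled knockout the counts were 7, 11, 13, 2 and 1, in the same order. Small classes give the noisier levels, so these counts are a description. Oas1a was a clear case: it read 30.7 CPM and 11.2 CPM in myeloid-like cells, and 0.699 CPM and 0.401 CPM in clusters 0 to 5.

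**Figure D3:**
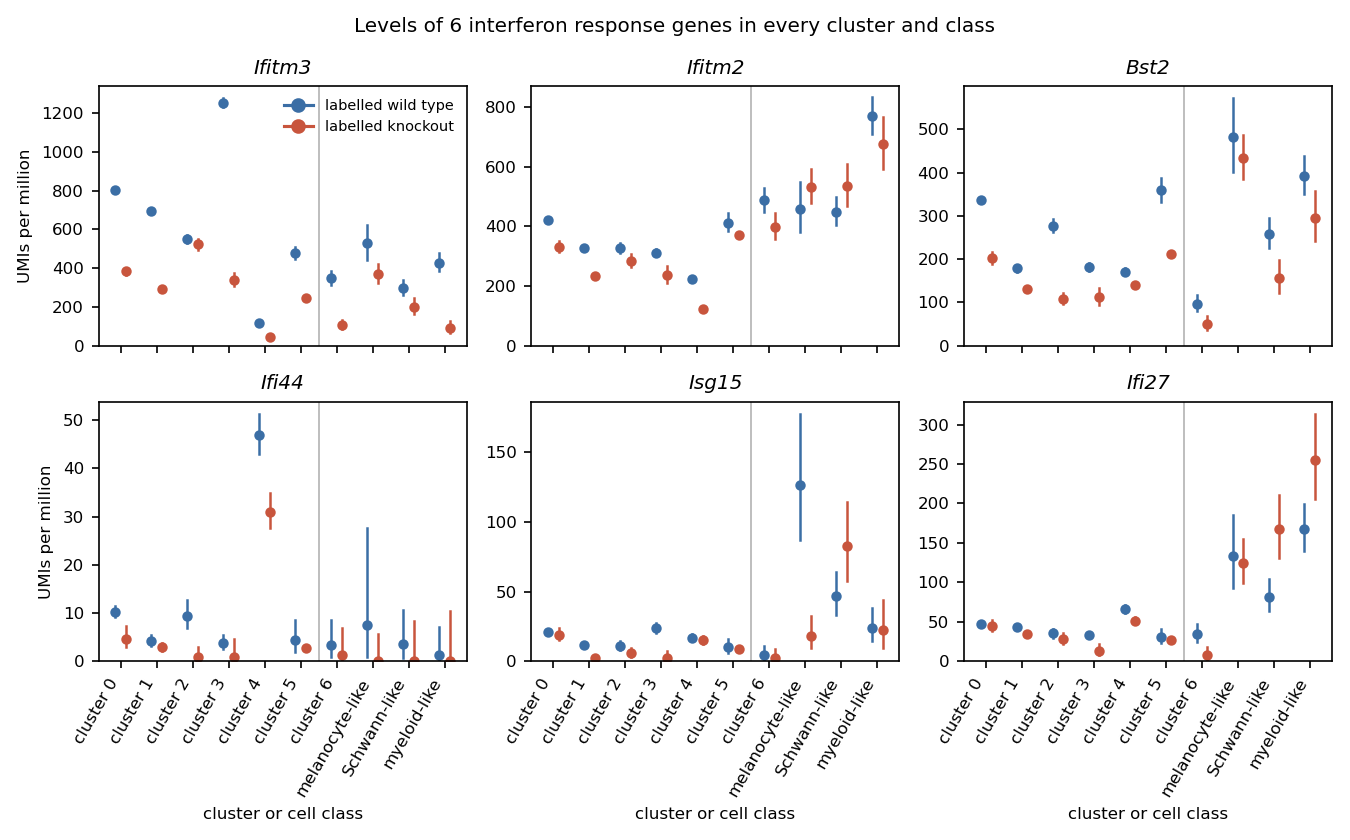
Levels (CPM, with 95% Poisson intervals) of Ifitm3, Ifitm2, Bst2, Ifi44, Isg15 and Ifi27 in every keratin-rich cluster and class, for each library. Ifitm3 is lower beyond counting error in the library labelled knockout everywhere but in cluster 2, where 550 and 522 lie close, and Ifi27 is higher there in the myeloid-like and Schwann-like cells.

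Promoter letters and ratios were set side by side for the 28 measured members with a window. An ISRE core lay in the windows of 10 of the 19 members at least 1.5-fold lower and in 3 of the 9 that were not. The median log2 ratio was -0.81 for the 13 members with a core and -0.64 for the 15 without. For GAS the counts were 5 of 19 and 3 of 9. Members with a core ranged from Ifitm3, at -1.50, to Ifit3, at 0.35. Ifit3 was the only one of them above 0, with 64 UMIs and an interval that held 0. Of the measured members without a core, all but Irf7 (0.06) and Isg20 (0.33) were below 0. Most members with and without the letters thus lay in the same direction.

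**Figure D4:**
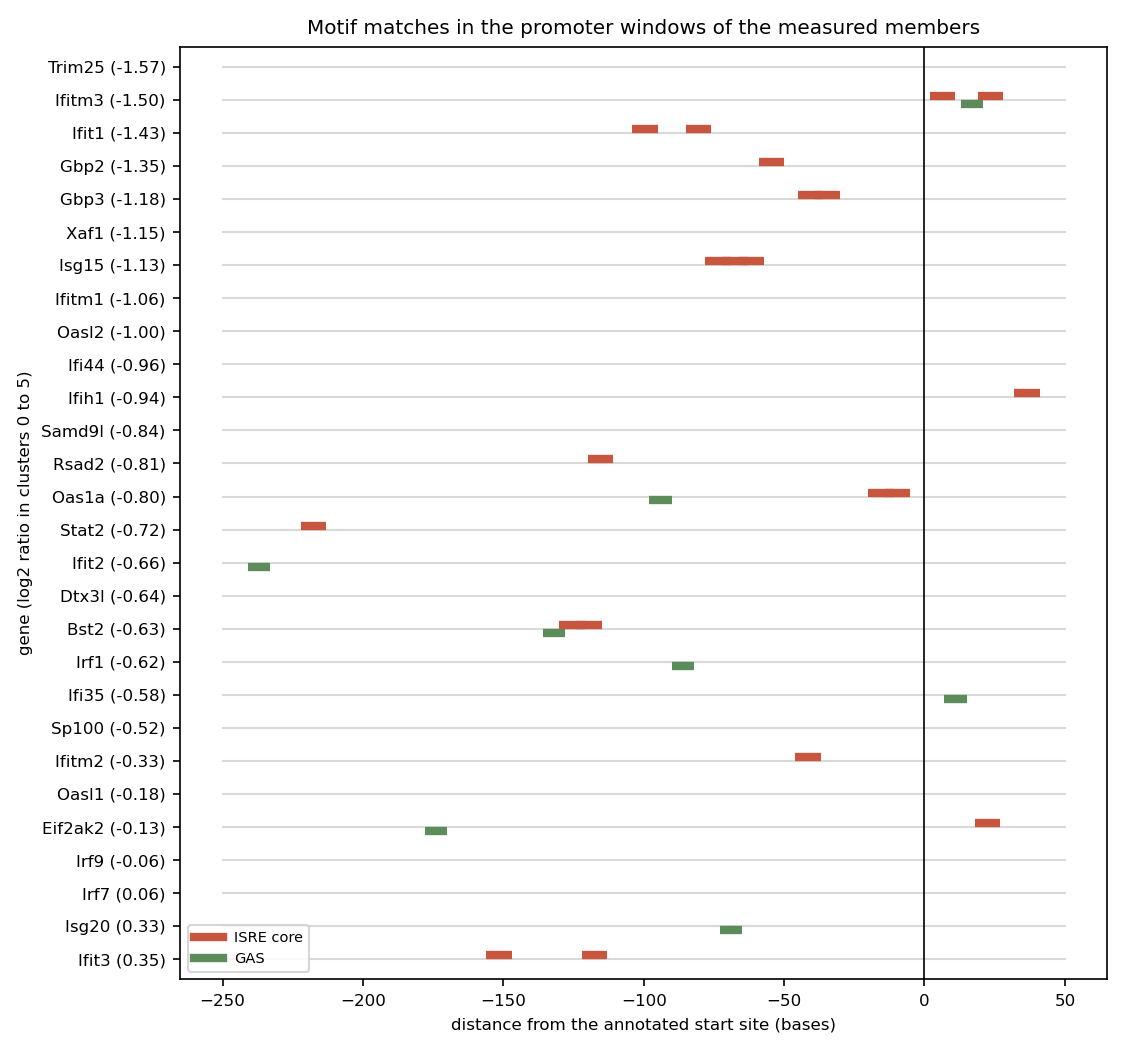
Positions of ISRE core and GAS matches, in bases from the start site, in the windows of the 28 measured members, ordered by log2 ratio in clusters 0 to 5. Matches occur along the whole order, and Trim25, at -1.57, has none.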

How the data were processed

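The authors deposited a UMI count matrix for each of the 2 libraries (unnormalized counts per gene and cell); the submitters' processing notes name mm10, Cell Ranger 2.1 and Seurat 2.0, with no further settings. NCBI gene identifiers were matched to symbols for 31049 of the rows; the 5479 others held 2.67% of UMIs. Cells with at least 500 genes and at most 10% mitochondrial UMIs were kept. Scrublet marked 1 and 7 cells as doublets, and these were removed; at under 0.5% of cells it is not taken to have worked, and doublets may remain. Cells were clustered with scanpy 1.11.5 (2000 variable genes, 30 components, 15 neighbours, Leiden resolution 0.5). A cluster was named melanocyte-like, Schwann-like or myeloid-like where at least 3 fixed markers of that type stood 5-fold above the mean of the other clusters. That list also had to lead all others. Clusters where no list reached 3 markers, or where a keratinocyte, cycling or Merkel list led, were called keratin-rich, without a keratin threshold. Any other cluster stayed unnamed, as did cluster 6 with 6 fibroblast and 4 skeletal muscle markers. Counts were summed per library and class and divided by the total. Levels have exact Poisson intervals and ratios have exact conditional intervals, both at 95%, after a test on simulated data. Genes needed 20 UMIs over both libraries, and a group at 0 was set to a floor of 3 UMIs. All 38 members are accounted for; pathway genes were named at 100 UMIs and a 2-fold difference, and Ifnlr1 and Trex1 were named after their values were seen. Some items are not reported here. The deposited cells held 77579465 and 64954113 UMIs. The members, lists and tests were chosen with earlier results of these data known.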

Additional observations from a re-analysis of the deposited data

Results flagged for a closer look

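For 3 members the ratio's counting intervals lay on opposite sides of 0 in a small class and in clusters 0 to 5, and these differences between classes were not tested. Ifi27 was higher in the library labelled knockout in Schwann-like cells (log2 ratio 1.03) and in myeloid-like cells (0.61), against -0.48 in clusters 0 to 5. Isg15 was higher in Schwann-like cells (0.83), against -1.13. Ifitm2 was higher in Schwann-like cells as well (0.26), against -0.33. Without the cell of each library richest in the gene, the values were 1.04 and 0.54 for Ifi27, 0.23 (-0.66 to 1.08) for Isg15 and 0.22 (-0.03 to 0.47) for Ifitm2. Without cells holding many members they were 0.95 and 0.63 for Ifi27, 0.06 (-0.81 to 0.89) for Isg15 and 0.31 (0.06 to 0.55) for Ifitm2.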

How the results depend on the processing

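The count of members at least 1.5-fold lower in clusters 0 to 5 ran from 15 (cells thinned to 8000 UMIs, with fewer UMIs per gene) to 23 over the alternatives, and their median log2 ratio from -0.89 to -0.55. The count of higher members was 0, except 1 without cluster 4 (Ifit3). The log2 ratio of the summed members there moved from -0.83 to -0.82 when centred on all genes, -0.74 with equal weight for each cell, -0.72 when thinned and -0.72 with equal weight for each cluster. It was -0.64, -0.80, -0.85, -0.79, -0.86 and -1.0 with clusters 0, 1, 2, 3, 4 and 5 left out in turn, -0.85 without clusters 0 and 5, -0.47 without Ifitm3 and -0.50 without Ifitm3, Ifitm2 and Bst2. In myeloid-like cells the ratio of the sum moved from -0.37 to -0.16 when thinned and to -0.12 without Ifitm3. The cause was not tested for any of these. Of the values of single members, 589 moved by less than their counting interval and 90 by more; Trim25 ran from -1.75 to -1.32, Ifitm3 from -1.60 to -1.09 and Isg15 from -1.62 to -0.82. The alternatives that leave out clusters, genes, many-member cells or the richest cell were chosen after seeing the data. No paired analysis was possible because each genotype has 1 library and no test was made. Depth limits the rare members: 4 of 38 stayed under 20 UMIs in clusters 0 to 5, and in the small classes 6 to 12 members could be compared.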
